A study of Mus musculus with 17 samples.

Results

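The 49 genes described here carry out DNA replication and supply its nucleotides. They were chosen by name: the MCM helicase, origin licensing factors, the GINS and Cdc45 partners of the helicase, the sliding clamp and its loader, RPA, the replicative polymerases, nucleotide enzymes, histone and DNA methylation maintenance factors, and the E2F and cyclin E regulators. Of these, 47 had a probe set annotated to 1 gene symbol and could be measured, out of 22180 genes tested. Rfc4 and Ccne2 were not analysed because their probe sets are annotated to a second gene as well. For the 6 members with more than 1 such probe set, the one with the highest mean was used.

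The study hybridised 17 arrays (Affymetrix Mouse Gene 2.0 ST) with RNA of 9 sorted mouse cell populations. From the thymus came DN3 thymocytes and, earlier in T cell development, early thymic progenitors (ETP). From bone marrow came early innate lymphoid progenitors (EILP), common lymphoid progenitors (CLP), natural killer cells (NK), multipotent progenitors primed for the lymphoid fate (LMPP), common myeloid progenitors with or without Flt3 (flt3+ CMP and flt3- CMP) and hematopoietic stem cells (HSC). EILP had 1 array and the other 8 populations had 2 each. Per the labels, all populations but NK, which the design text does not mention, were pooled from chimeric mice: B6 CD45.1 recipients were irradiated with 900 rads, received marrow of TCF-1 GFP reporter donors and were used after 12 weeks of reconstitution. The reporter and the irradiated host are thus common to these 8 populations and are not stated for NK. No knockout or treatment is compared, and the sources used here give neither donor ages nor sort gates. Whether replicates came from separate pools of mice is not stated, and the p-values therefore rest on the spread between these arrays alone, which may be technical.

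A cell copies its genome once per division. In G1 phase the origin recognition complex, Cdc6 and Cdt1 load the MCM2-7 helicase onto DNA. At the start of S phase Cdc45 and GINS join it, polymerases are recruited, and ribonucleotide reductase raises the supply of deoxynucleotides. E2F transcription factors, released when cyclin-dependent kinases phosphorylate the retinoblastoma protein, drive many of these genes, so their RNA is widely used as a sign of cycling cells. Stem cells in the marrow are known to divide rarely, while progenitors and thymocytes after productive Tcrb rearrangement divide often. In a sorted pool, a lower share of cycling cells and less RNA per cycling cell cannot be told apart.

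Expression is given on the log2 scale for 1 probe set a gene, on which a difference of 1 is a 2-fold difference. Array medians over all genes lay between 4.45 and 4.62. Some markers were highest where the labels place them: Mecom in HSC at 6.89, Ncr1 in NK at 11.15 and Cd3e in DN3 at 10.11. Of the ETP list, Kit was highest in ETP at 9.16. Notch1, Hes1 and Gata3 were higher in DN3 (8.77, 7.92 and 6.39) than in ETP (7.98, 7.46 and 5.56). Of the LMPP list, Dntt and Satb1 were highest in DN3 and Cd34 in flt3- CMP. Of the EILP markers, Nfil3 and Zbtb16 were highest in EILP at 6.70 and 6.26, while Tox was higher in both thymic populations and Id2 was at 8.44 in EILP and 9.99 in NK. The 4 EILP markers measured averaged 7.16 in EILP and 7.19 to 7.46 in NK, and Tcf7 was not analysed here. Gata2, of the CMP list, was highest in HSC, and Csf1r, of the same list, was at 7.32 in CLP and 6.75 in flt3- CMP. Of the CLP list, Flt3 was at 7.76 in CLP and 9.92 in LMPP, and Il7r was at 9.71 in CLP and 9.85 in DN3. Gzma, of the NK list, was at 10.12 in NK and 9.16 in DN3. The 6 neutrophil marker genes averaged 10.21 to 11.61 on every marrow array, NK included, and 4.15 to 5.31 on the thymic arrays. Y-linked transcripts averaged 7.03 to 7.66 on the DN3, EILP and CLP arrays and 3.03 to 3.38 on the other 12. In comparisons across that split (DN3 with ETP, EILP with NK, CLP with LMPP) population and Y-linked level cannot be told apart.

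Replication genes were lowest in ETP and highest in flt3- CMP and DN3. Each gene was set against its own mean over the 9 populations, and the deviations of the 47 genes were averaged on each array. This average was 0.35 on both DN3 arrays and -0.48 and -0.55 in ETP. In EILP it was -0.14, in CLP 0.21 and 0.22, and in NK -0.40 and -0.20. LMPP had -0.10 and -0.04, flt3+ CMP had 0.05 and 0.19, flt3- CMP had 0.44 and 0.42, and HSC had -0.05 and -0.13. All genes together gave averages between -0.03 and 0.06 on these arrays. From the top, the order was flt3- CMP, DN3, CLP, flt3+ CMP, LMPP, HSC, EILP, NK and ETP. CLP and flt3+ CMP differed by less than the spread of the flt3+ CMP arrays, LMPP and HSC overlapped, and EILP lay just below the lower HSC array, at -0.13, by less than the gap between the HSC arrays.

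**Figure D1:**
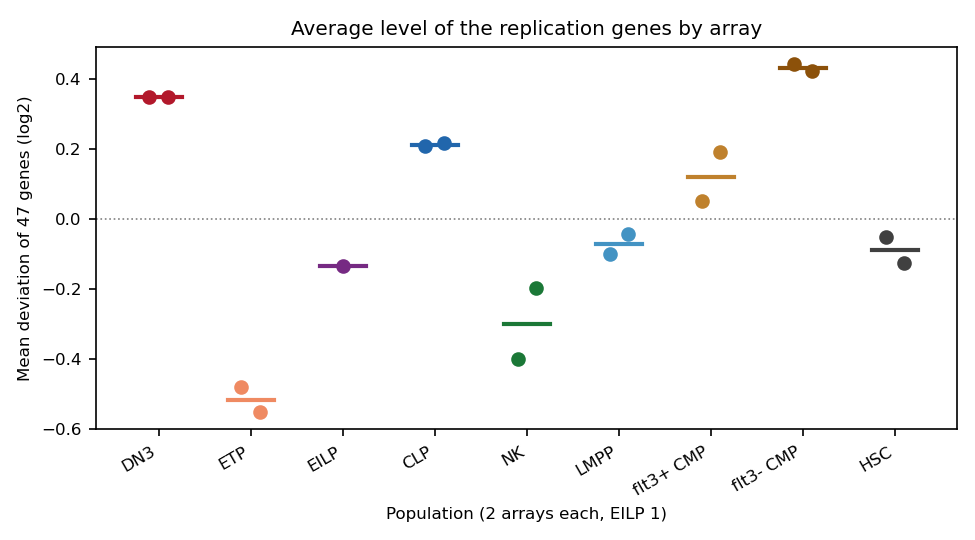
Mean deviation of the 47 genes (vertical axis, log2, each gene against its own mean over 9 populations) on each array, by population; points are arrays and bars are population means. Both ETP arrays lie lowest, at -0.48 and -0.55, and both flt3- CMP arrays highest, at 0.44 and 0.42.

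Gene by gene the picture was similar. On the 2 ETP arrays, 4 and 2 of the 47 genes lay above their own mean, against 43 and 42 on the DN3 arrays and 45 and 44 on the flt3- CMP arrays. ETP had the lowest population mean for 27 genes (57.4%, against 10.8% of all genes), NK for 12 (25.5%, against 10.6%) and EILP for 6 (12.8%, against 16.2%). The highest mean was in flt3- CMP for 22 genes (46.8%, against 13% of all genes), in DN3 for 11 (23.4%, against 13.8%) and in CLP for 5 (10.6%, against 5.5%). No gene peaked in HSC, NK or ETP. The range between the highest and lowest population mean had a median of 1.12 over the 47 genes, from 0.49 for Rpa3 to 2.04 for Uhrf1, while the median SD between replicates was 0.14. Over all genes the median range was 0.63. A moderated F test in limma found 34 of the 47 genes (72.3%) to differ between populations at an adjusted p under 0.05, against 22.7% of all genes tested.

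**Figure D2:**
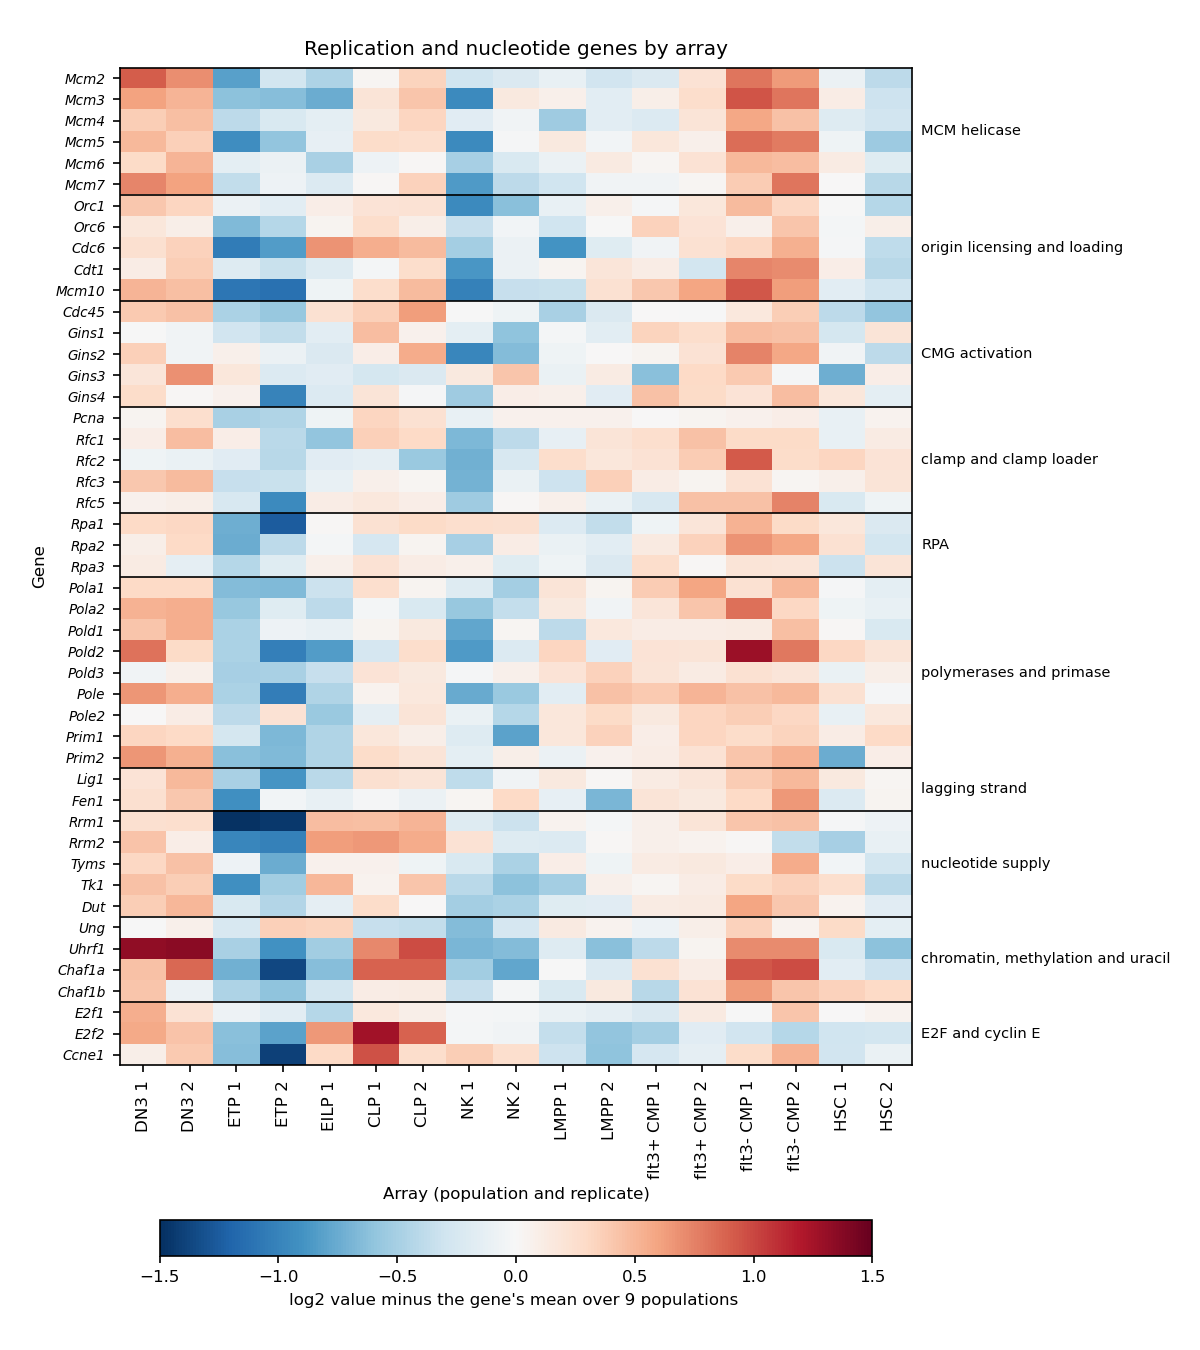
Deviation of each of the 47 genes (rows, grouped by function) from its own mean over 9 populations, in log2 units by colour, on each of the 17 arrays (columns), with colours held at the ends of the scale beyond it. The ETP columns are blue in nearly every row and the DN3 and flt3- CMP columns are red in most, while EILP is red for Rrm1, Rrm2, Tk1, Cdc6 and E2f2 and blue for most MCM and polymerase genes.

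Promoters of these genes share sequence words that the choice by name did not use. RefSeq promoter windows (GRCm38.p6, 250 bases before the start to 50 after) were found for 40 of the 47 genes. The E2F words searched on both strands were TTCCCGC, its variant TTGGCGC, its variant TTCGCGC and its variant TTGCCGC. At least 1 of them occurred in 25 of the 40 (62.5%), against 13.7% of the 16990 tested genes with a window and 9.6% of all 32851 windows of that length. With a further T in front (8 letters), they occurred in 16 (40%), against 3.3% of tested genes. CCAAT, on either strand, occurred in 24 (60%), against 41.6% of tested genes and 37.4% of all windows. The E2F words can overlap each other and CCAAT, and a match is a description of the letters, not a binding site. The 25 genes with an E2F word and the 15 without one had median differences of 0.78 and 0.91 between DN3 and ETP, and of -0.37 and -0.43 between ETP and LMPP. Genes called higher by limma (adjusted p under 0.05) in DN3 minus ETP numbered 14 of 25 with and 12 of 15 without a word, against 5.2% of all genes. In ETP minus LMPP 6 of 25 and 1 of 15 were called lower, against 2.4% of all genes. In CLP minus LMPP 4 of 25 and 2 of 15 were called higher, against 3.75%. In flt3- CMP minus HSC 3 of 25 and 3 of 15 were called higher, against 2.4%. In EILP minus CLP 2 and 0 were called lower, against 0.325%, and in EILP minus NK 2 and 0 higher, against 1.57%. The split was not tested.

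The stretches below lie upstream of the start for Uhrf1, Chaf1a and Rrm1, which had the widest ranges, and for a few other genes. E2F words and CCAAT (or their reverse complements) are in capitals. The genes are examples and not a representative sample of the members. Pold2 and E2f2, with wider ranges than several genes shown, are left out, as is Mcm2. Neither Pold2 nor Mcm2 has an E2F word in its window. Rrm2 and Mcm10 are shown because they hold no E2F word in the stretch, although Rrm2 has one further upstream in its window. Each is 120 bases, read 5′ to 3′ along the gene, and ends at the base before the start, except Mcm5. Its stretch ends 61 bases before the start and covers the place where its E2F words lie.
Uhrf1, chr17:56303217-56303336, plus strand: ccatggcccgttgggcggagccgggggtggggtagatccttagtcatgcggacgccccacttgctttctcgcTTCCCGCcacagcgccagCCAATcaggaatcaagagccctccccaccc
Chaf1a, chr17:56040296-56040415, plus strand: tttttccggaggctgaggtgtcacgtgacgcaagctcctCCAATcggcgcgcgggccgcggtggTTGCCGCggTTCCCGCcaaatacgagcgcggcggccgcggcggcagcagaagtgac
Rrm1, chr7:102441575-102441694, plus strand: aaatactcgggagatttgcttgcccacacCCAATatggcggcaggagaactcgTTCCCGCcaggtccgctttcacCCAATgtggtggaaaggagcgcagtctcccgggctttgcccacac
Mcm6, chr1:128359706-128359825, minus strand: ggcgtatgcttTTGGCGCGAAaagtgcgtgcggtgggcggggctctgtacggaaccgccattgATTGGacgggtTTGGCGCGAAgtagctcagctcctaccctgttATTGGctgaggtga
Mcm5, chr8:75109329-75109448, plus strand: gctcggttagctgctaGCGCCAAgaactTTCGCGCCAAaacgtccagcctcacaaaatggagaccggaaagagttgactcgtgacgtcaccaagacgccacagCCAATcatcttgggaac
Prim1, chr10:128015095-128015214, plus strand: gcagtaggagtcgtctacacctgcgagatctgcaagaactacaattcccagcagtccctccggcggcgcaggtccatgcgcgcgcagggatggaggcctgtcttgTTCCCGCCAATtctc
Rrm2, chr12:24708134-24708253, plus strand: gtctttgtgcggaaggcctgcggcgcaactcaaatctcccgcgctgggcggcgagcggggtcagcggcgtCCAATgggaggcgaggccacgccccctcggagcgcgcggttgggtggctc
Mcm10, chr2:5012792-5012911, minus strand: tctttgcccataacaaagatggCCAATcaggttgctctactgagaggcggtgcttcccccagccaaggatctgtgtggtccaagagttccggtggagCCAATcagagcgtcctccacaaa
In Mcm6 the 2 copies of TTGGCGCGAA hold 2 overlapping E2F words each, and in Prim1 an E2F word runs into CCAAT.

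The helicase subunits Mcm2 to Mcm7, which unwind the template as a ring of 6 proteins, all passed the F test. Mcm3 had the widest range. It was at 8.62 and 8.51 in DN3, 7.40 and 7.37 in ETP, 7.26 in EILP, 8.21 and 8.43 in CLP, and 7.06 and 8.15 in NK. The remaining arrays were at 8.09 and 7.85 in LMPP, 8.10 and 8.28 in flt3+ CMP, 8.95 and 8.81 in flt3- CMP, and 8.13 and 7.70 in HSC. EILP and ETP lay below every other array except NK replicate 1, and the NK replicates were over 2-fold apart. Mcm5 was at 8.13 and 8.0 in DN3, 6.71 and 7.05 in ETP, 7.52 in EILP, 7.92 and 7.89 in CLP, and 6.68 and 7.63 in NK. Its other values were 7.79 and 7.60 in LMPP, 7.81 and 7.71 in flt3+ CMP, 8.48 and 8.42 in flt3- CMP, and 7.58 and 7.10 in HSC. Both DN3 and both flt3- CMP arrays were above all others. The narrowest range was that of Mcm4, with 9.03 and 9.10 in DN3, 8.26 and 8.43 in ETP, 8.51 in EILP, 8.81 and 8.97 in CLP, and 8.48 and 8.61 in NK. Mcm4 was at 8.12 and 8.49 in LMPP, 8.45 and 8.85 in flt3+ CMP, 9.23 and 9.10 in flt3- CMP, and 8.47 and 8.37 in HSC. Here LMPP, not ETP, had the lowest mean.

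Of the genes that license origins or act there (Orc1, Orc6, Cdc6, Cdt1 and Mcm10), 4 of 5 passed the F test, with Cdt1 at an adjusted p of 0.059. Mcm10, which helps activate the loaded helicase, had the widest range. It was at 6.71 and 6.66 in DN3, 5.12 and 5.09 in ETP, 6.15 in EILP, 6.48 and 6.68 in CLP, and 5.20 and 5.86 in NK. Its values were 5.88 and 6.44 in LMPP, 6.62 and 6.80 in flt3+ CMP, 7.13 and 6.83 in flt3- CMP, and 6.05 and 5.91 in HSC. The ETP arrays lay below all others, with NK replicate 1 next. Orc1, the largest subunit of the origin recognition complex, was at 6.57 and 6.49 in DN3, 6.08 and 6.01 in ETP, 6.27 in EILP, 6.37 and 6.39 in CLP, and 5.22 and 5.55 in NK. It was at 6.06 and 6.24 in LMPP, 6.15 and 6.34 in flt3+ CMP, 6.65 and 6.48 in flt3- CMP, and 6.17 and 5.74 in HSC. NK was lowest for Orc1, below every other array. Orc6 had the narrowest range, with 8.79 and 8.71 in DN3, 7.97 and 8.20 in ETP, 8.66 in EILP, 8.89 and 8.72 in CLP, and 8.29 and 8.59 in NK. Its other values were 8.33 and 8.62 in LMPP, 8.97 and 8.84 in flt3+ CMP, 8.71 and 9.04 in flt3- CMP, and 8.60 and 8.71 in HSC. ETP was lowest again. Cdc6, which loads the helicase, had its highest mean in EILP at 7.65 and its lowest in ETP at 6.03.

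Cdc45 and the GINS subunits complete the active helicase, and 3 of these 5 passed the F test: Cdc45, Gins1 and Gins2. Gins2 was at 8.20 and 7.79 in DN3, 7.91 and 7.75 in ETP, 7.62 in EILP, 7.94 and 8.39 in CLP, and 6.86 and 7.19 in NK. It was at 7.77 and 7.85 in LMPP, 7.88 and 8.05 in flt3+ CMP, 8.58 and 8.41 in flt3- CMP, and 7.79 and 7.44 in HSC. Gins2 departed from the common pattern in that ETP overlapped DN3 and NK was lowest. Gins3 (F test adjusted p = 0.521) was at 6.55 and 7.05 in DN3, 6.53 and 6.16 in ETP, 6.19 in EILP, 6.10 and 6.14 in CLP, and 6.51 and 6.78 in NK. The other Gins3 values, 6.26 and 6.49 in LMPP, 5.73 and 6.66 in flt3+ CMP, 6.76 and 6.35 in flt3- CMP, and 5.63 and 6.47 in HSC, show HSC replicates further apart than the highest and lowest population means.

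The sliding clamp Pcna and the loader subunits Rfc1, Rfc2, Rfc3 and Rfc5 had ranges of population means between 0.74 and 1.19, and 3 of 5 passed the F test. Rfc5 (F test adjusted p = 0.112) was at 7.56 and 7.59 in DN3, 7.26 and 6.55 in ETP, 7.62 in EILP, 7.66 and 7.60 in CLP, and 6.96 and 7.52 in NK. The rest were 7.57 and 7.40 in LMPP, 7.26 and 7.94 in flt3+ CMP, 7.94 and 8.25 in flt3- CMP, and 7.27 and 7.43 in HSC. Only the flt3- CMP pair stood at or above all other arrays. Pcna was at 11.13 and 11.34 in DN3, 10.60 and 10.63 in ETP, 11.02 in EILP, 11.41 and 11.31 in CLP, and 10.98 and 11.14 in NK. It was at 11.15 on both LMPP arrays, 11.09 and 11.12 in flt3+ CMP, 11.15 and 11.19 in flt3- CMP, and 10.97 and 11.14 in HSC. For Pcna the ETP pair lay clearly below the 15 other arrays, which lay between 10.97 and 11.41.

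Among the subunits of RPA, which coats single-stranded DNA, Rpa1 and Rpa2 passed the F test and Rpa3 did not. Rpa1 was at 7.84 and 7.86 in DN3, 6.81 and 6.29 in ETP, 7.56 in EILP, 7.77 and 7.84 in CLP, and 7.79 and 7.78 in NK. Its values were 7.33 and 7.18 in LMPP, 7.48 and 7.73 in flt3+ CMP, 8.07 and 7.84 in flt3- CMP, and 7.72 and 7.33 in HSC. Only ETP stood low, and NK was as high as CLP. Rpa3, with the narrowest range of all members, was at 9.57 and 9.31 in DN3, 9.02 and 9.26 in ETP, 9.52 in EILP, 9.66 and 9.56 in CLP, and 9.52 and 9.26 in NK. The other Rpa3 values were 9.38 and 9.23 in LMPP, 9.71 and 9.46 in flt3+ CMP, 9.64 and 9.62 in flt3- CMP, and 9.12 and 9.63 in HSC. The populations overlapped widely.

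Of 9 genes for subunits of polymerases alpha, delta and epsilon and of primase, which starts each new strand, 7 passed the F test. Pold2, an accessory subunit of polymerase delta, was at 7.84 and 7.32 in DN3, 6.56 and 6.01 in ETP, 6.20 in EILP, 6.79 and 7.29 in CLP, and 6.19 and 6.82 in NK. It was at 7.35 and 6.86 in LMPP, 7.24 and 7.22 in flt3+ CMP, 8.31 and 7.83 in flt3- CMP, and 7.34 and 7.22 in HSC. Both ETP arrays, EILP and NK replicate 1 were lowest, and flt3- CMP replicate 1 was highest. Pold3, with the narrowest range, was at 8.0 and 8.13 in DN3, 7.56 and 7.57 in ETP, 7.72 in EILP, 8.26 and 8.20 in CLP, and 8.04 and 8.14 in NK. Its other values were 8.26 and 8.40 in LMPP, 8.25 and 8.19 in flt3+ CMP, 8.29 and 8.24 in flt3- CMP, and 7.96 and 8.15 in HSC. ETP and EILP again lay below all others. A second probe set of Pole, the catalytic subunit of polymerase epsilon, had its highest mean in HSC at 6.13, unlike the one used, which had it in DN3 at 7.82.

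Lig1 seals the fragments of the lagging strand and Fen1 trims them. Lig1 was at 8.43 and 8.71 in DN3, 7.74 and 7.33 in ETP, 7.81 in EILP, 8.46 and 8.41 in CLP, and 7.84 and 8.17 in NK. It was at 8.37 and 8.24 in LMPP, 8.34 and 8.40 in flt3+ CMP, 8.60 and 8.70 in flt3- CMP, and 8.36 and 8.24 in HSC. The ETP, EILP and NK arrays were the lowest. Fen1 (F test adjusted p = 0.12) was at 6.38 and 6.54 in DN3, 5.22 and 6.09 in ETP, 6.02 in EILP, 6.12 and 6.04 in CLP, and 6.16 and 6.43 in NK. Further Fen1 values were 6.01 and 5.45 in LMPP, 6.33 and 6.28 in flt3+ CMP, 6.43 and 6.79 in flt3- CMP, and 5.93 and 6.18 in HSC. The ETP replicates lay further apart than those of any other population.

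Of the 10 classes, the nucleotide enzymes had the lowest average deviation in ETP, -0.78, and 4 of 5 passed the F test. Rrm1, the large subunit of ribonucleotide reductase, was at 9.54 and 9.55 in DN3, 7.80 and 7.84 in ETP, 9.76 in EILP, 9.74 and 9.81 in CLP, and 9.10 and 8.97 in NK. Its values were 9.35 and 9.26 in LMPP, 9.37 and 9.49 in flt3+ CMP, 9.71 and 9.73 in flt3- CMP, and 9.28 and 9.22 in HSC. Replicates lay within 0.13 of each other in every population, and ETP was over 1 log2 unit below the lowest other array. Rrm2, the small subunit, had population means of 10.03 in DN3, 8.77 in ETP, 10.39 in EILP, 10.37 in CLP, 9.78 in NK, 9.67 in LMPP, 9.83 in flt3+ CMP, 9.59 in flt3- CMP and 9.46 in HSC. A second Rrm2 probe set also had its lowest mean in ETP, at 5.90, and its highest in CLP, at 7.82. Tyms, which makes thymidylate, had the narrowest range (F test adjusted p = 0.104). It was at 7.20 and 7.33 in DN3, 6.82 and 6.15 in ETP, 6.96 in EILP, 6.95 and 6.83 in CLP, and 6.67 and 6.42 in NK. The other Tyms values were 6.99 and 6.83 in LMPP, 7.01 and 7.04 in flt3+ CMP, 6.99 and 7.45 in flt3- CMP, and 6.85 and 6.62 in HSC. Another probe set, annotated to both Tyms and its pseudogene Tyms-ps, was not used. Whether the pseudogene adds to the Tyms values given here was not tested.

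Of the 4 genes that restore chromatin or remove uracil from DNA, Uhrf1 and Chaf1a passed the F test, and Uhrf1 had the widest range of all members. Uhrf1, which recruits the maintenance DNA methyltransferase to newly copied DNA, was at 8.80 and 8.82 in DN3, 6.98 and 6.56 in ETP, 6.95 in EILP, 8.19 and 8.45 in CLP, and 6.78 and 6.81 in NK. It was at 7.27 and 6.85 in LMPP, 7.08 and 7.50 in flt3+ CMP, 8.18 on both flt3- CMP arrays, and 7.24 and 6.85 in HSC. The values fall into a high set of DN3, CLP and flt3- CMP and a low set of all other arrays, with no array between 7.50 and 8.18. Chaf1a, the large subunit of the histone chaperone CAF-1, was at 6.59 and 7.01 in DN3, 5.43 and 4.78 in ETP, 5.51 in EILP, 7.04 on both CLP arrays, and 5.63 and 5.37 in NK. Its other values were 6.15 and 5.95 in LMPP, 6.38 and 6.26 in flt3+ CMP, 7.08 and 7.12 in flt3- CMP, and 5.99 and 5.84 in HSC. The same 3 populations were high. Ung, which removes uracil from DNA, did not follow them (F test adjusted p = 0.199). Ung was at 5.54 and 5.62 in DN3, 5.31 and 5.91 in ETP, 5.89 in EILP, 5.21 and 5.18 in CLP, and 4.89 and 5.30 in NK. It was at 5.68 and 5.61 in LMPP, 5.47 and 5.64 in flt3+ CMP, 5.89 and 5.61 in flt3- CMP, and 5.84 and 5.40 in HSC. The CLP pair was low for Ung while high for Uhrf1.

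Of the regulators E2f1, E2f2 and Ccne1, 2 passed the F test, E2f2 and Ccne1, and both had their highest mean in CLP, while E2f1 had it in DN3. E2f2, an activating E2F factor, was at 5.54 and 5.40 in DN3, 4.35 and 4.17 in ETP, 5.62 in EILP, 6.24 and 5.85 in CLP, and 4.95 and 4.92 in NK. It was at 4.62 and 4.38 in LMPP, 4.47 and 4.80 in flt3+ CMP, 4.68 and 4.54 in flt3- CMP, and 4.68 and 4.70 in HSC. E2f2 was high in CLP, EILP and DN3 and not in flt3- CMP, and its ETP and LMPP means lay below the median of all values, 4.54. Ccne1, cyclin E1, was at 6.47 and 6.77 in DN3, 5.74 and 4.98 in ETP, 6.67 in EILP, 7.34 and 6.64 in CLP, and 6.75 and 6.63 in NK. Its other values were 6.07 and 5.78 in LMPP, 6.13 and 6.25 in flt3+ CMP, 6.65 and 6.91 in flt3- CMP, and 6.10 and 6.28 in HSC. NK was as high as DN3 for Ccne1. E2f1 (F test adjusted p = 0.162) was at 6.11 and 5.79 in DN3, 5.49 and 5.41 in ETP, 5.14 in EILP, 5.72 and 5.66 in CLP, and 5.55 and 5.54 in NK. The other E2f1 values were 5.47 and 5.44 in LMPP, 5.36 and 5.70 in flt3+ CMP, 5.57 and 5.98 in flt3- CMP, and 5.57 and 5.62 in HSC. EILP was lowest.

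**Figure D3:**
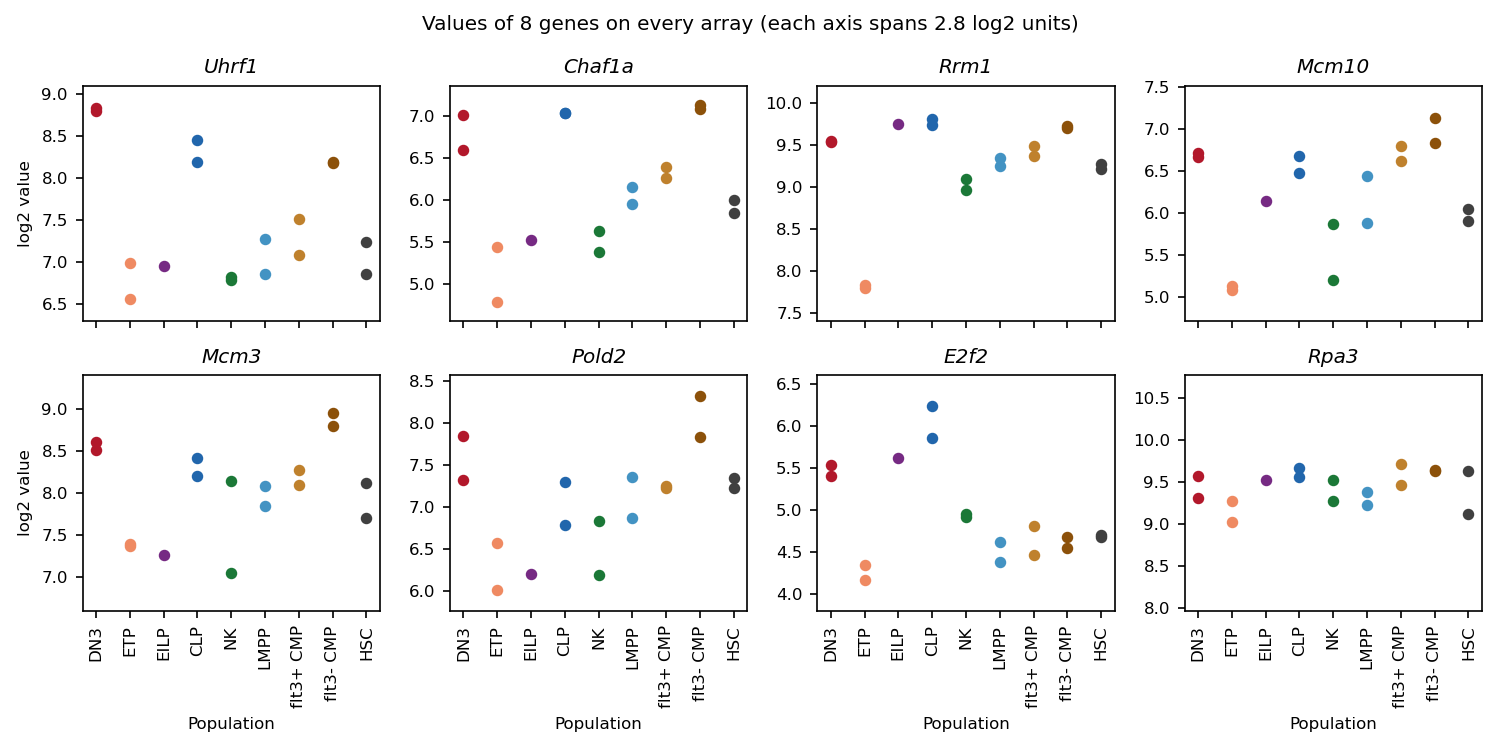
log2 values of 8 genes (panels) on every array (points), by population; each vertical axis spans the same 2.8 log2 units. Uhrf1 and Chaf1a are high in DN3, CLP and flt3- CMP, Rrm1 is low in ETP alone, E2f2 is highest in CLP, and Rpa3 varies little.

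DN3 thymocytes and ETP lie at different stages of thymic development, and their comparison gave the most calls. Of the 47 genes, 29 rose in DN3 relative to ETP (limma, adjusted p under 0.05) and 0 fell, against 5.2% of all genes called higher and 3.53% called lower. The differences were positive for 46 genes, with a median of 0.78 (all genes, -0.03), and at an unadjusted p under 0.05 there were 37 higher and 0 lower, against 11.5% and 9.29% of all genes. Uhrf1 rose by 2.04 ± 0.21 (SE, n = 2 each, limma adjusted p = 2.63e-05), a 4.12-fold difference. Rrm1 rose by 1.72 ± 0.13 (adjusted p = 1.51e-06) and Chaf1a by 1.70 ± 0.21 (adjusted p = 0.000131). In all 3 genes, which the test had selected, the lower DN3 array lay above the higher ETP array by over 1 log2 unit. By class, the calls were 5 of 6 MCM subunits, 3 of 5 licensing genes, 7 of 9 polymerase and primase genes and 5 of 5 nucleotide enzymes, but 1 of 5 in the Cdc45 and GINS class. Mcm6 at 0.51 and Gins2 at 0.16 were not called, and Ung, at -0.03, was the single negative difference. Neutrophil marker averages were 4.15 to 4.90 in DN3 and 5.15 to 5.31 in ETP. Erythroid marker averages were 4.71 to 4.83 in DN3 and 4.81 to 4.95 in ETP. The part of these markers in the result was not tested. The count was 18 without DN3 replicate 1, 16 without DN3 replicate 2, and 19 with only these 4 arrays in the fit.

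The step from LMPP in the marrow to ETP in the thymus went the other way. Of the 47 genes, 8 fell in ETP relative to LMPP and 0 rose, against 2.4% of all genes called lower and 1.02% called higher. Differences were negative for 45 genes with a median of -0.42 (all genes, 0.04), and 21 were lower and 0 higher at an unadjusted p under 0.05, against 7.25% and 7.16% of all genes. Rrm1 fell by 1.48 ± 0.13 (SE, n = 2 each, limma adjusted p = 1.14e-05), Mcm10 by 1.05 ± 0.22 (adjusted p = 0.0178) and Chaf1a by 0.94 ± 0.21 (adjusted p = 0.0229). Also called were Pola1, Pold3 and Pole of the polymerases, Lig1 and Rrm2, while no MCM2-7 subunit, GINS gene or clamp gene was. The probe set used for Pole had means of 6.46 in ETP and 7.36 in LMPP. The second, dimmer one had 5.23 and 5.37, so the Pole call rests on 1 of its probe sets. The arrays of both groups were apart for these 8 genes, which the test had already selected, so this adds no separate support. The count was 2 without ETP replicate 2, 4 without LMPP replicate 1, 1 without LMPP replicate 2 and 1 with only these 4 arrays. The call of Rrm1 was kept in all 12 alternatives run, with differences between -1.52 and -1.43. Neutrophil marker averages were 5.15 to 5.31 in ETP and 10.62 to 10.73 in LMPP, and their part in the result was not tested. The comparison shares the ETP arrays with the one before it, so the falls and rises of the same genes are not independent of each other.

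EILP, the innate lymphoid progenitor of the series, was set against CLP, the progenitor of B cells and other lymphocytes. Differences were negative for 39 of 47 genes, and those of the polymerase, MCM and nucleotide genes had different ranges. Chaf1a fell by 1.52 ± 0.25 in EILP (SE, n = 1 against 2, limma adjusted p = 0.0216), a 2.87-fold difference, and Uhrf1 fell by 1.37 ± 0.26 (adjusted p = 0.0382). These were the 2 genes called of 47, both lower, against 0.325% of all genes called lower and 0.0406% called higher. At an unadjusted p under 0.05, 15 genes were lower and 1 (Ung, at 0.69) higher, against 4.7% and 3.94% of all genes, and the median was -0.34 (all genes, 0.05). The average deviation of the polymerase and primase genes was -0.43 in EILP and 0.09 in CLP, and that of the MCM subunits -0.36 and 0.19. For the nucleotide enzymes it was 0.31 in EILP and 0.29 in CLP, with differences between -0.27 and 0.27 for its 5 genes, while those of the 9 polymerase and primase genes lay between -0.84 and -0.20. The difference between the classes was not tested. A further list of 29 nucleotide synthesis genes outside the members did not share the level of these 5 enzymes. Its average deviation was -0.31 in EILP and 0.02 in CLP, and its median difference was -0.33. Of single genes not called, Mcm3 differed by -1.05 ± 0.33 (adjusted p = 0.323). Both calls were lost without CLP replicate 1 or CLP replicate 2 (0 called each), with quantile normalization (0), with only the 3 arrays compared (0) and with only the DN3, EILP and CLP arrays (0). Over all 9 alternatives run, those that kept the calls included, the differences of Chaf1a lay between -1.62 and -1.43 and those of Uhrf1 between -1.50 and -1.21. With quantile normalization the unadjusted count over both directions was 8 in place of 16. Erythroid marker averages were 7.32 in EILP and 7.28 to 7.29 in CLP, and pre-B markers were at 4.32 in EILP against 6.43 to 7.20 in CLP, with 2 of 5 and 4 of 5 above the median of all values. Their part in the result was not tested.

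**Figure D4:**
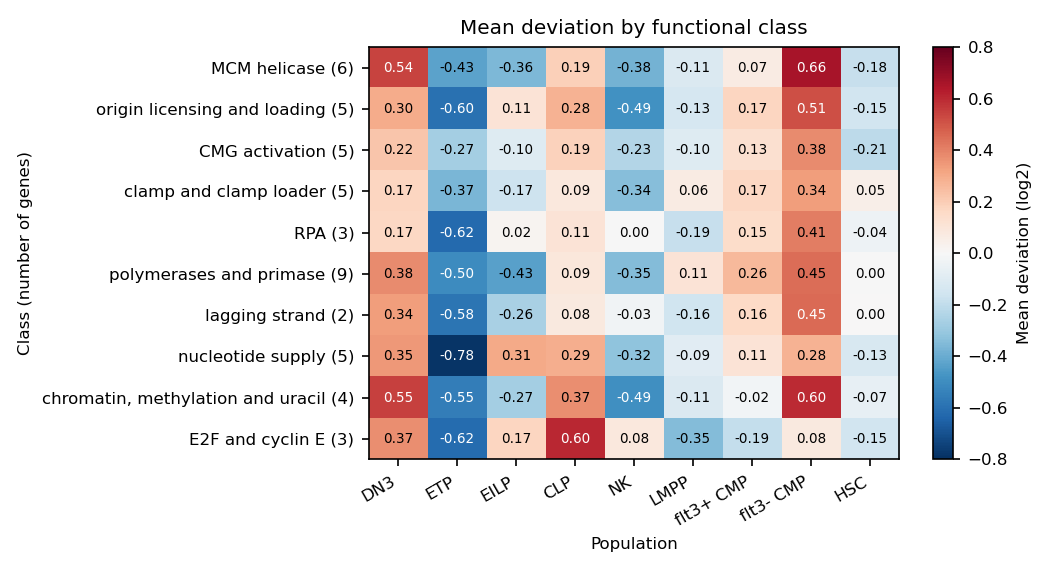
Average deviation of the genes of each functional class (rows, number of genes in brackets) from their own means over 9 populations, in log2 units, by population (columns). In EILP the nucleotide enzymes are at 0.31 while the polymerases and primase are at -0.43, and in ETP every class is negative.

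Between EILP and NK, the mature innate lymphocytes of the series, differences were small and mixed. Orc1 rose by 0.89 ± 0.21 in EILP (SE, n = 1 against 2, limma adjusted p = 0.0365) and Rrm1 by 0.73 ± 0.16 (adjusted p = 0.0229). These 2 of 47 genes compare with 1.57% of all genes called higher, and 0 were lower, against 1.91%. At an unadjusted p under 0.05, 9 genes were higher and 1 lower, against 6.78% and 8.33% of all genes, and the median was 0.15 (all genes, -0.05), or 0.04 without NK replicate 1. Tk1, the salvage enzyme for thymidine, at 1.02 ± 0.29, and Cdc6, at 0.98 ± 0.28, had larger differences but did not pass (adjusted p = 0.0851 and adjusted p = 0.0852). The MCM subunits had a median difference of -0.07, with 0 of 6 called by limma and 0 at an unadjusted p under 0.05. The 2 NK arrays stood apart, with average deviations of -0.40 and -0.20. Erythroid marker averages were 7.32 in EILP and 6.66 to 6.72 in NK, and their part in the result was not tested. The count was 1 without either NK replicate: the call of Orc1 was lost without replicate 1 and that of Rrm1 without replicate 2. It was 0 with only these 3 arrays in the fit and 1 with an intensity trend.

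In CLP relative to LMPP, calls lay mainly among the E2F and cyclin E regulators (2 of 3) and the chromatin genes (2 of 4). E2f2 rose by 1.54 ± 0.17 in CLP (SE, n = 2 each, limma adjusted p = 0.000114), but its LMPP mean is under the array-wide median, which leaves the size of the change uncertain. Also called were Uhrf1, higher by 1.26 ± 0.21 (adjusted p = 0.00243) and Ccne1 by 1.06 ± 0.26 (adjusted p = 0.0247). Cdc6, Cdc45 and Chaf1a were called too, with 1.05, 0.84 and 0.99. The 6 calls of 47 were all higher, against 3.75% of all genes called higher, and 0 were lower, against 2.2%. At an unadjusted p under 0.05 there were 10 higher and 1 lower, against 8.79% and 8.18% of all genes, and the median was 0.24 (all genes, -0.05). Quantile normalization gave a median of 0.14, and centring each array gave 19 genes in place of 11 at an unadjusted p under 0.05. No MCM2-7 subunit and none of the 9 polymerase and primase genes was called, and the median of the latter class was -0.07. Rfc2, a clamp loader subunit, had the lowest difference, -0.56. The count was 3 without CLP replicate 1, CLP replicate 2 or LMPP replicate 1, and 3 with only these 4 arrays. E2f2 and Uhrf1 kept their calls in all 11 alternatives run. Erythroid marker averages were 7.28 to 7.29 in CLP and 5.49 to 5.69 in LMPP, and pre-B marker averages 6.43 to 7.20 in CLP and 4.52 to 4.81 in LMPP. Neutrophil marker averages were 11.46 to 11.55 in CLP and 10.62 to 10.73 in LMPP. Their part in the result was not tested.

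Between LMPP and HSC no difference passed the test. Of 47 genes, 0 were called in either direction by limma and 0 had an unadjusted p under 0.05. Of all genes, 0.275% were called higher and 0.325% lower, and 3.37% and 4.03% had an unadjusted p under 0.05. Differences lay between -0.36 and 0.35 with a median of 0.03, and 28 were positive. The median SE was 0.21, and the smallest member difference called in any of the 8 comparisons was 0.50 (Pold3, DN3 minus ETP). The median was -0.06 without HSC replicate 2.

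Against HSC, flt3- CMP had higher replication genes nearly throughout. Differences were positive for 45 of 47 genes, with a median of 0.49 (all genes, 0.04). The test called 8 higher and 0 lower, against 2.4% and 1.82% of all genes, and 26 were higher and 0 lower at an unadjusted p under 0.05, against 9.95% and 6.03%. Chaf1a rose by 1.19 ± 0.21 (SE, n = 2 each, limma adjusted p = 0.00664), Uhrf1 by 1.13 ± 0.21 (adjusted p = 0.00857) and Mcm5 by 1.11 ± 0.25 (adjusted p = 0.0264). Mcm2, Mcm4, Mcm10, Cdc45 and Gins2 were called as well, with differences between 0.75 and 1.01. The helicase, its loading factors and its partners thus held 6 of the 8 calls, and the polymerases, RPA, the clamp and the nucleotide enzymes held 0. The classes were less apart at an unadjusted p under 0.05. There 4 of 9 polymerase and primase genes, 3 of 5 nucleotide enzymes, 2 of 3 RPA genes and 1 of 5 clamp and loader genes were higher. So were 6 of 6 MCM subunits, 4 of 5 licensing genes and 3 of 5 in the Cdc45 and GINS class. No call was left without flt3- CMP replicate 1 (0) or flt3- CMP replicate 2 (0), and 4 and 1 were left without HSC replicate 1 and HSC replicate 2. The medians stayed between 0.34 and 0.51. Erythroid marker averages were 6.93 to 7.11 in flt3- CMP and 5.91 to 5.96 in HSC, and their part in the result was not tested.

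Between the myeloid progenitor pools most differences were negative and none passed the test. In flt3+ CMP relative to flt3- CMP 41 of 47 differences were negative, with a median of -0.29 (all genes, -0.02), and 0 genes were called (limma), against 0.0631% of all genes called lower and 0.0451% higher. At an unadjusted p under 0.05 there were 14 lower and 0 higher, against 6.32% and 2.99% of all genes, and 5 of 6 MCM subunits were among the 14. The unadjusted count was 5 without flt3+ CMP replicate 1 and 7 without flt3- CMP replicate 1, and the median was -0.18 with quantile normalization. The lowest difference was that of Uhrf1, -0.89 (limma adjusted p = 0.144), and the highest that of Rrm2, 0.23. Erythroid marker averages were 6.18 to 6.28 in flt3+ CMP and 6.93 to 7.11 in flt3- CMP, and their part in the result was not tested.

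**Figure D5:**
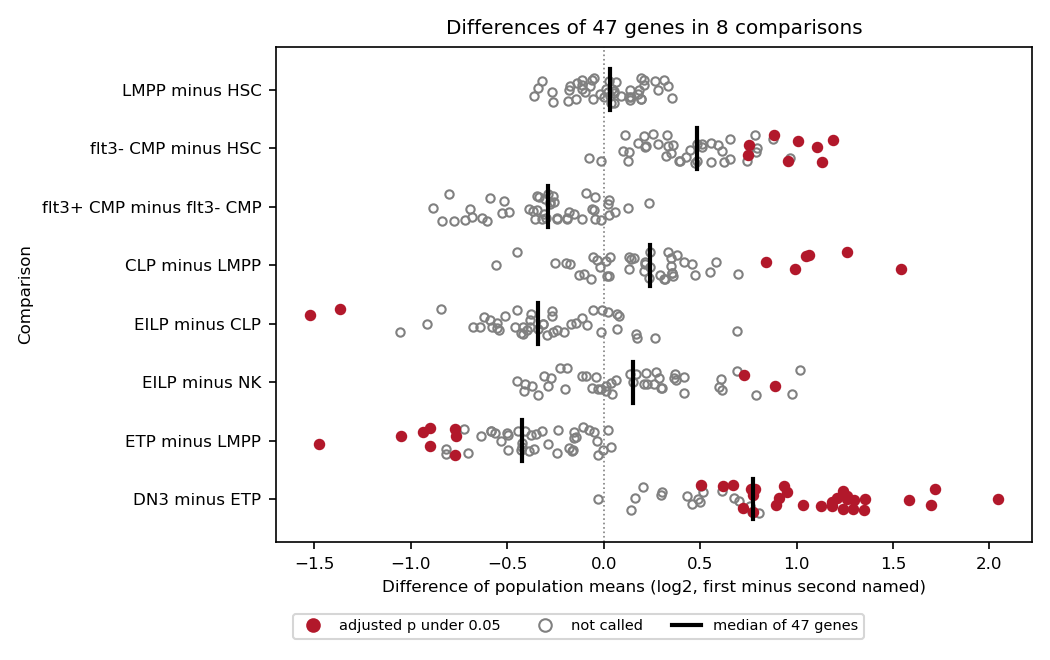
Difference of population means (horizontal axis, log2, first population minus second) of each of the 47 genes in 8 comparisons (rows); filled points passed an adjusted p under 0.05 and black bars are medians. DN3 minus ETP has 29 filled points, all positive, and ETP minus LMPP has 8, all negative.

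Other genes of replication and nucleotide synthesis, from lists chosen by function, moved in part with the members. Of 22 further fork, polymerase and chromatin assembly genes measured, 11 rose in DN3 relative to ETP and 0 fell. Of all genes, 5.2% were called higher there and 3.53% lower. The median of the list was 0.67. The largest rises were those of Asf1b, a histone chaperone, at 1.74 ± 0.27, Top2a, a topoisomerase, at 1.42 ± 0.16, and Dna2, a nuclease and helicase, at 1.26 ± 0.30. Of 16 further licensing and origin genes, 3 rose in DN3: Ticrr, needed to start origins, by 1.86 ± 0.15, Dbf4, the partner of the Cdc7 kinase, by 1.09 ± 0.19, and Gmnn, the inhibitor of Cdt1, by 0.83 ± 0.19. The median of that list was 0.25. In ETP relative to LMPP, 2 of the 22 fell (Top2a and Asf1b) and 2 of the 16 (Ticrr and Mcm8), against 2.4% of all genes. In flt3- CMP relative to HSC 2 of the 22 and 3 of the 16 rose, against 2.4% of all genes.

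Of 29 nucleotide synthesis genes outside the members, 8 rose in flt3- CMP relative to HSC and 0 fell. Of all genes, 2.4% were called higher and 1.82% lower, and the median of the list was 0.53. Mthfd1, a folate enzyme of purine and thymidylate synthesis, rose by 1.96 ± 0.23, Shmt2, a serine hydroxymethyltransferase, by 1.26 ± 0.32, and Atic, which completes purine synthesis, by 1.24 ± 0.31. The average deviation of the 29 genes was 0.49 in flt3- CMP, against -0.04 in HSC, and it was lowest in EILP, at -0.31. In DN3 relative to ETP 12 rose and 1 fell, against 5.2% and 3.53% of all genes. Dck, a salvage kinase for deoxycytidine, rose by 1.98 ± 0.22, Cad, which starts pyrimidine synthesis, by 1.33 ± 0.23, and Adsl, a purine enzyme, by 1.30 ± 0.34. Samhd1, which degrades deoxynucleotides, was the 1 that fell: it fell by 4.79 ± 0.18, with means of 4.48 in DN3 and 9.27 in ETP. The DN3 mean is under the array-wide median, 4.54, which leaves the size of the change uncertain. In ETP relative to LMPP, where Rrm1 and Rrm2 fell, 0 of the 29 were called by limma. At an unadjusted p under 0.05, 3 were lower and 0 higher, against 7.25% and 7.16% of all genes.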

How the data were processed

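The table deposited by the authors holds log2 values for 41345 probe sets of the Mouse Gene 2.0 ST array on 17 arrays. Affymetrix Expression Console is named in the submitters' processing notes. The sources used here do not give its version, background correction or summary method, so how far low values are compressed is unknown. Probe sets with 1 gene symbol (23521) were kept (1814 named several genes and 16010 named no gene), and the probe set with the highest mean was taken per gene. limma 3.58.1 in R 4.3.3 (lmFit, eBayes) was fitted to all 17 arrays with 1 mean per population (8 residual and 5.33 prior degrees of freedom). EILP, with 1 array, is assumed to vary like the others. Calls used a Benjamini-Hochberg adjusted p under 0.05 over 22180 genes in each of 8 two-sided comparisons that share arrays, and in an F test. The number of arrays limits the precision. The script was tested on simulated data. Values of every array are given for the widest and narrowest member of each class and the 3 largest calls per comparison. Members and lists were chosen with earlier results of these data known. Same-numbered replicates did not deviate together (28 pairs, correlations -0.07 to 0.09), so no block was used. Promoter sequences are RefSeq's (GRCm38.p6). Alternatives covered scaling, filters, probe sets, priors, samples in the fit and single arrays.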

Additional observations from a re-analysis of the deposited data

How the results depend on the processing

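Centring each array, leaving out dim genes and averaging a gene's probe sets left every count of called members within 1.5 times its reported value. Quantile normalization removed the 2 calls of EILP minus CLP (0). Restricting the fit to the populations compared gave 19 in place of 29 for DN3 minus ETP, 1 in place of 8 for ETP minus LMPP, 3 in place of 6 for CLP minus LMPP, and 0 in place of 2 for EILP minus CLP and for EILP minus NK, where fewer arrays set the spread. Restricting it to arrays on the same side of the Y-linked split gave 0 for EILP minus CLP. An intensity trend gave 1 for EILP minus NK. Leaving out each array in turn gave 16 to 22 calls for DN3 minus ETP, 1 to 7 for ETP minus LMPP, 0 for EILP minus CLP, 1 for EILP minus NK, 3 to 4 for CLP minus LMPP, 0 to 4 for flt3- CMP minus HSC, and 0 for LMPP minus HSC and for flt3+ CMP minus flt3- CMP. With the replicate number as a block and EILP left out, the counts were 30 for DN3 minus ETP and 8, 6, 0, 8 and 0 for ETP minus LMPP, CLP minus LMPP, LMPP minus HSC, flt3- CMP minus HSC and flt3+ CMP minus flt3- CMP, with 34 in the F test. Of the 55 member calls, 17 were kept under every alternative run, 38 were lost under at least 1, and 0 changed sign. The median difference kept its sign in all alternatives of every comparison except LMPP minus HSC, where 11 of 12 did.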

Other observations

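Regulators of entry into S phase that are not members were called in both directions. In DN3 relative to ETP, 8 of 30 rose and 2 fell, against 5.2% and 3.53% of all genes. Ccna2, cyclin A2, rose by 2.10 ± 0.30 (limma adjusted p = 0.000467), E2f8, a repressing E2F factor, by 2.05 ± 0.21 (adjusted p = 2.98e-05), and Cdkn2c, an inhibitor of Cdk4 and Cdk6, by 1.73 ± 0.20 (adjusted p = 8.54e-05). Tfdp2, a dimer partner of E2F factors, fell by 0.77 ± 0.20 and Rbl2, a pocket protein of resting cells, by 0.67 ± 0.18. In ETP relative to LMPP 6 of the 30 fell and 2 rose, against 2.4% and 1.02% of all genes. The largest falls were those of E2f8 at -1.99 ± 0.21, Ccna2 at -1.94 ± 0.30 and Skp2, which targets cyclin kinase inhibitors for degradation, at -1.38 ± 0.17. E2f3 and Mycn rose there, by 1.09 ± 0.27 and 1.01 ± 0.23. The LMPP mean of Mycn, 4.10, is under the array-wide median, 4.54, which leaves the size of the change uncertain. In EILP relative to NK, Cdk2 rose by 1.65 ± 0.25, while Rbl2 fell by 1.84 ± 0.22 and Ccnd2, cyclin D2, by 1.55 ± 0.32. Of all genes, 1.57% were called higher in EILP than in NK and 1.91% lower. In CLP relative to LMPP 4 of the 30 rose and 1 fell, against 3.75% and 2.2% of all genes. In flt3- CMP relative to HSC 1 of the 30 rose and 1 fell, near the shares of all genes, 2.4% and 1.82%.

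Mitosis genes were called in large part in both comparisons with ETP. In CLP relative to LMPP 6 of 17 rose, against 3.75% of all genes, and in flt3- CMP relative to HSC 1 did, against 2.4%. For LMPP relative to HSC, flt3+ CMP relative to flt3- CMP, and EILP relative to CLP or NK, 0 were called. In ETP relative to LMPP 15 of 17 fell, against 2.4% of all genes, with a median of -1.39. In DN3 relative to ETP 17 of 17 rose, against 5.2% of all genes, with a median of 1.58. The largest rises were those of Plk1, a mitotic kinase, at 2.34 ± 0.39, Bub1b, a checkpoint kinase, at 2.17 ± 0.21, and Kif11, a spindle motor, at 2.09 ± 0.20. The average deviation of the 17 genes was highest in CLP, at 0.65, and flt3+ CMP, at 0.50. It was 0.28 in flt3- CMP, where the replication genes were highest. In LMPP relative to HSC 8 of the 17 were higher at an unadjusted p under 0.05, against 3.37% of all genes, and 0 passed the adjusted test. Of the 47 replication genes, 0 had an unadjusted p under 0.05 there. The difference between the lists was not tested.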
